A study of Homo sapiens with 48 samples.

Results

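The mRNA levels of 10 enzymes of purine nucleotide synthesis were followed in AMO1 human multiple myeloma cells while the endoplasmic reticulum stress sensor IRE1 or its downstream transcription factor XBP1 was silenced. The genes were taken by symbol. They were PPAT, GART, PFAS, PAICS, ADSL and ATIC of the de novo pathway, IMPDH2 and GMPS of the branch that leads to GMP, and the salvage enzymes HPRT1 and APRT. Each matched 1 of the 58302 gene rows of the count table, and all 10 passed the filter on low counts in every fit. AMO1 is a plasmacytoma line that the labels describe as tumor plasma cells. All cells carried doxycycline (Dox)-inducible short hairpin RNAs, against IRE1 in clones 1 and 3 (shIRE1, labelled AMO-1 IRE1 sh7,8,9) or against XBP1 in clones 1 and 18 (shXBP1, labelled AMO-1 XBP1 sh4,6,7). Each clone was left without Dox (0 h) or kept in 0.2 µg/ml Dox for 24, 48 or 72 h, with 3 flasks per time, which gave 16 groups and 48 libraries. Each line is 1 clone, every Dox-treated library also carries the effect of Dox itself, and no non-targeting hairpin was analysed here. The p-values rest on the spread between the 3 flasks within groups, pooled over the 12 libraries of a clone or over all 48. They do not measure the spread between clones.

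Purine nucleotides are made de novo by building the purine ring, atom by atom, on a ribose phosphate. PPAT commits phosphoribosyl pyrophosphate to the pathway, and GART, PFAS, PAICS, ADSL and ATIC carry out the later steps as far as IMP, with GART, PAICS and ATIC each catalysing more than 1 step. From IMP, ADSL acts again on the way to AMP, whereas IMPDH2 makes XMP and GMPS converts XMP into GMP. HPRT1 returns hypoxanthine and guanine, and APRT returns adenine, to the nucleotide pool in the salvage pathway, which bypasses ring synthesis. Dividing cells and cells that secrete much protein, such as plasma cells, draw on both routes for RNA, DNA, ATP and GTP.

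The promoters of PPAT and PAICS are shown first because these neighbouring genes are transcribed in opposite directions from a shared stretch of DNA, and because both fell in the shIRE1 clones, to different extents. RefSeq promoter windows of 300 bases on GRCh38.p14, from 250 bases before a start to 50 bases after it, were matched for 8 of the 10 genes, all but ADSL and IMPDH2. The PPAT start and the nearest PAICS start lay 137 bases apart, and their windows shared 236 bases. Both strands were searched for the E-box CACGTG, the palindromic sequence bound by MYC and related proteins. The shared stretch holds 1 E-box, which begins 182 bases before the PPAT start (position -182) and 40 bases after the PAICS start. ATIC, the enzyme of the last steps to IMP, was the third gene with an E-box, with 1 on each side of its start. The PPAT window, chr4:56435566-56435865 on the minus strand, and the ATIC window, chr2:215311809-215312108 on the plus strand, are printed with the E-boxes in capitals.
PPAT: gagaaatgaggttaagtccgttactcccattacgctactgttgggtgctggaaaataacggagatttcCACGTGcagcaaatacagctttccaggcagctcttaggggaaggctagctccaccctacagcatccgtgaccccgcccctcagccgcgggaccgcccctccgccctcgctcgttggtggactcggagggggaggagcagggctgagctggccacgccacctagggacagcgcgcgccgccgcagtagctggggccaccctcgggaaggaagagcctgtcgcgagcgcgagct
ATIC: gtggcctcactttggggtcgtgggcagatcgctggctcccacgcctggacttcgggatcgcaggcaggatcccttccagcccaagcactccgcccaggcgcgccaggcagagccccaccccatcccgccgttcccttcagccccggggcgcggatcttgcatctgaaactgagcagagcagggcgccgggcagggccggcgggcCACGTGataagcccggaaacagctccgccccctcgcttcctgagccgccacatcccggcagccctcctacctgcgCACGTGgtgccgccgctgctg
An E-box was found in 7.26% of all 35116 windows. The motif CCGGAAG, a core of binding sites for ETS factors, was searched on both strands and found in 10.3% of all windows. It was present in the APRT window and in the GART window chr21:33542068-33542367, but not in the other GART windows. GART and PAICS have more than 1 window each, whereas the shares of all windows are per window and not per gene. These matches describe the letters in the windows and not occupancy.

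The 48 libraries held between 19177855 and 40767202 counts each, and in the shallowest of them a single count equalled 0.0521 CPM (counts per 1000000 counts of the library). All 10 plasma cell markers examined exceeded 1 CPM in all 48 libraries, with a summed level of 9063 to 22199 CPM. The 12 markers of other cells summed to 6.63 to 22.3 CPM, 8 of them stayed under 1 CPM in every library, CD3D, PAX5 and HBB had a median of 0, and CD3E reached 4.59 to 17.3 CPM. Mean ERN1 mRNA, which encodes IRE1, was 152, 127 and 96.4 CPM at 0, 24 and 48 h in shIRE1 clone 1, and 438, 145 and 125 CPM at 0, 24 and 72 h in shIRE1 clone 3. The fall was thus far smaller in clone 1, above all at 24 h. Clone 1 without Dox was already close to the level of clone 3 with Dox. The 2 shIRE1 clones are therefore not equal in the depletion of ERN1 mRNA. Mean XBP1 mRNA at 0, 24, 48 and 72 h was 167, 45.3, 35.9 and 34.0 CPM in shXBP1 clone 1 and 170.2, 62.6, 44.5 and 37.9 CPM in clone 18. In bulk RNA, fewer cells of a state and less RNA per cell cannot be told apart.

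Clone marker genes in 7 libraries went against the clone labels. At 0 and 24 h, 14 genes separated the shIRE1 clones by at least 2 log2 units at both times. On a scale from 0 (clone 3) to 1 (clone 1), the 3 libraries labelled shIRE1 clone 1 at 72 h had median positions of 0.0224, -0.000315 and 0.0233 over these genes, whereas the 3 labelled shIRE1 clone 3 at 48 h had 0.987, 1.01 and 1.13. LAMB4 was at 1.38, 37.5 and 44.7 CPM in clone 1 at 0, 24 and 48 h and was not counted in any clone 3 library of 0, 24 or 72 h. It was likewise at 0 in the libraries labelled clone 1 at 72 h, but at 55.3 CPM in those labelled clone 3 at 48 h. A level of 0 allows up to 3 counts per library. Replicate 3 labelled shXBP1 clone 18 at 72 h lay nearer to shXBP1 clone 1 (r = 0.996) than to its own group (r = 0.985). Replicate 1 of shIRE1 clone 3 at 24 h also correlated slightly better with clone 1 (0.994 against 0.992), but 0 of its 14 marker genes were nearer to clone 1. Other values of these shIRE1 groups went with their labels. Mean ERN1 mRNA by label was 96.4 and 102 CPM at 48 and 72 h in clone 1, and 121 and 125 CPM in clone 3. From 48 to 72 h by label, 0.869% of all genes differed in clone 1 and 0.936% in clone 3 (edgeR quasi-likelihood test, adjusted p under 0.05). The origin of these libraries was therefore not settled, and the labels were kept. Therefore, the changes in the shIRE1 lines were described first from clone 1 at 24 and 48 h and clone 3 at 24 and 72 h, and the 7 libraries were then treated apart.

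Before Dox, the 10 enzymes spanned a wide range of levels. Per kilobase of exon and per unit of depth (RPKM, with exon lengths from GENCODE annotation of GRCh38 rather than the GRCh37 build named in the submitters' notes), the median over the 12 libraries of 0 h was 88.5 for IMPDH2, 80.9 for ATIC and 67.2 for PAICS. APRT followed at 52.7, GART at 42.8, PFAS at 29.0 and GMPS at 21.3 RPKM. PPAT, the committing enzyme, was among the lowest at 16.02 RPKM, with HPRT1 at 12.7 and ADSL at 2.25 RPKM. Every neighbouring pair in this order overlapped in range over the 12 libraries except HPRT1 and ADSL, so only the last place was separate on this scale. That place depends on the exon lengths used, 12109 bases for ADSL and 1612 for HPRT1. Without division by length, mean ADSL at 0 h was 32.4 and 29.0 CPM in shIRE1 clones 1 and 3, and 26.7 and 27.0 CPM in shXBP1 clones 1 and 18. HPRT1 was at 21.8, 33.8, 19.2 and 17.2 CPM in the same order. Of the exon bases of IMPDH2, 32.8% overlap another gene on the same strand, as do 11.1% of those of ADSL, which makes their levels uncertain. PAICS has 7 pseudogene rows in the table, of which none exceeded 33.1 CPM in any library, and the highest pseudogene rows of GMPS, PPAT and HPRT1 reached 15.1, 11.0 and 0.132 CPM.

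The clones of each hairpin set did not start alike. At 0 h, PAICS was higher in shIRE1 clone 1 than in clone 3 by 0.31 ± 0.0691 (SE) on the log2 scale and GMPS by 0.30 ± 0.0751, whereas HPRT1 was lower, with -0.63 ± 0.101. These were 3 of 10 members, where 40.6% of all genes passed. In the fit of all 48 libraries PFAS and ADSL also passed without replicate 1 of shIRE1 clone 3 at 24 h, with 0.25 and 0.18, and PFAS and PPAT without replicate 3 of shXBP1 clone 18 at 72 h, with 0.23 and 0.22. Between shXBP1 clones 1 and 18, 6 members differed at 0 h (clone 1 minus clone 18), PFAS by 0.65, GMPS by 0.55, IMPDH2 by 0.30, ATIC by -0.17, PAICS by -0.29 and PPAT by -0.49, where 51.3% of all genes passed. Each clone was therefore compared with its own 0 h libraries.

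With Dox in the shIRE1 clones, the enzymes moved in both directions rather than together, and so did the genes at large. PAICS, GMPS and PPAT mRNA fell in both shIRE1 clones at each time, IMPDH2 rose in both, and HPRT1 moved in opposite directions in the 2 clones. At an adjusted p under 0.05 (edgeR quasi-likelihood test, Benjamini-Hochberg adjustment over all genes tested), 3 members rose and 5 fell in clone 1 at 24 h, where 61.4% of all genes passed, 32.4% upward and 29% downward. At 48 h, 4 rose and 5 fell, where 65.4% passed, 33.9% upward and 31.5% downward. In clone 3, 4 rose and 4 fell at 24 h, against 46.2% of all genes, 22.8% upward and 23.3% downward. At 72 h, 2 rose and 5 fell, against 60.2%, 29.7% upward and 30.5% downward. With 46.2% to 65.4% of all genes passing in these comparisons, these counts were not far from the background, and the sizes and directions of the single enzymes carry the description. The same numbers of members rose and fell when the 6 shIRE1 libraries with conflicting labels were left out, where 60.4%, 64.9%, 43.1% and 57.8% of all genes passed in these 4 comparisons. The median log2 change of the 10 members ran from -0.143 to -0.0127 over them, beside 0.015 to 0.0421 for all genes.

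**Figure D1:**
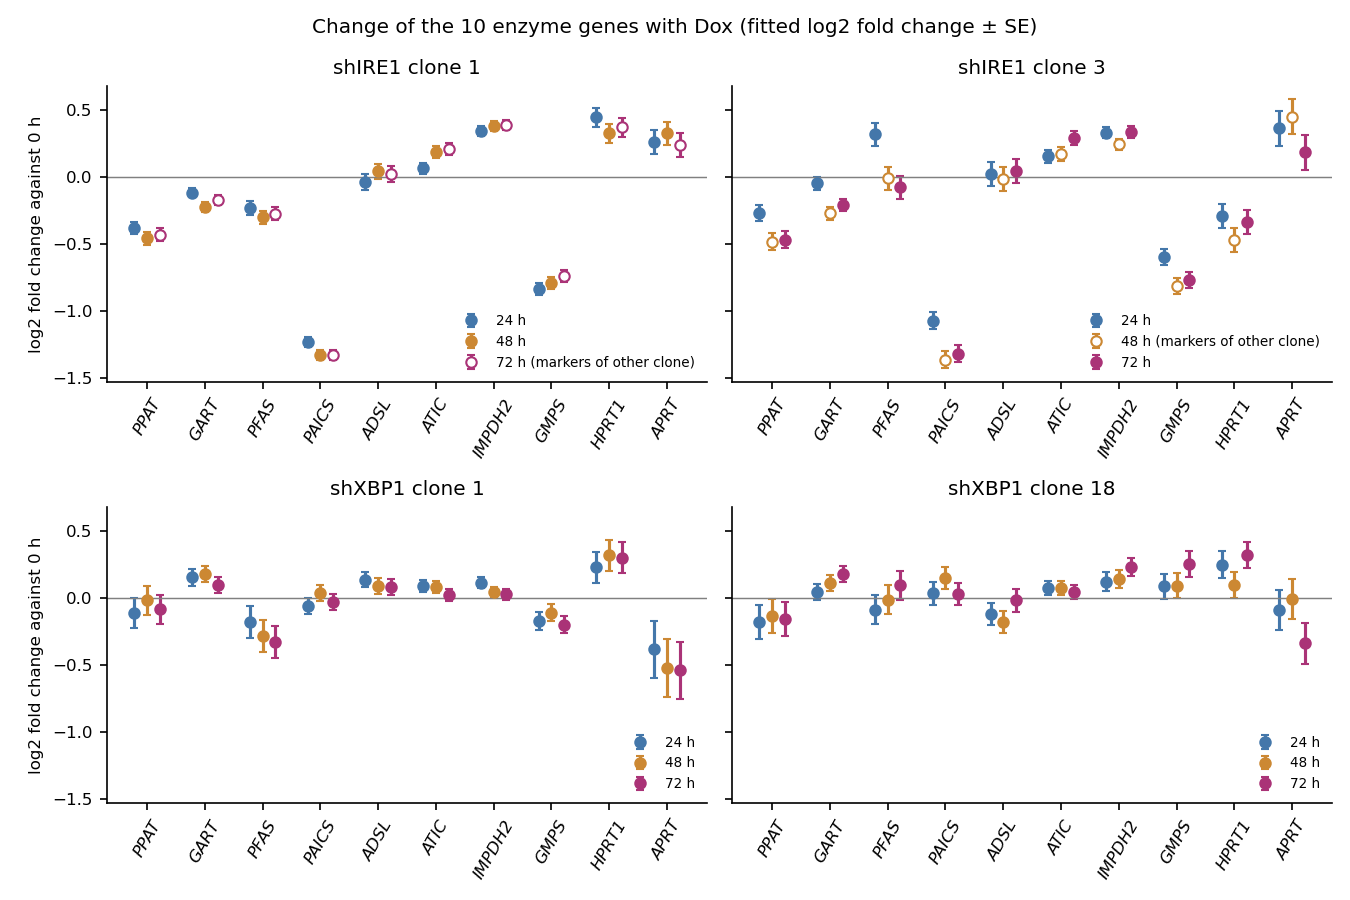
Log2 change of each enzyme against 0 h (vertical axis, with SE) in the 2 shIRE1 and 2 shXBP1 clones. Colours give 24, 48 and 72 h of Dox. Hollow points are the groups labelled shIRE1 clone 1 at 72 h and clone 3 at 48 h, and fill does not mark the adjusted p. Groups follow the labels, so shIRE1 clone 1 at 72 h, clone 3 at 48 h and shXBP1 clone 18 at 72 h include the libraries with conflicting markers; PAICS lies between -1.36 and -1.07 in the shIRE1 clones and between -0.06 and 0.15 in the shXBP1 clones.

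PAICS, which joins a carboxylase and a ligase in 1 protein in the middle of the de novo pathway, showed the largest change of the 10 enzymes. In shIRE1 clone 1 it was at 555, 561 and 534 CPM in the 3 libraries of 0 h, 242, 232 and 229 CPM at 24 h and 214, 212 and 231 CPM at 48 h. In clone 3 it was at 476, 439.6 and 415 CPM at 0 h, 230.4, 199 and 206 CPM at 24 h and 169.6, 173 and 195 CPM at 72 h. All Dox-treated libraries lay below all libraries of 0 h in both clones, without overlap. The log2 change in clone 1 was -1.24 ± 0.0376 at 24 h and -1.33 ± 0.0378 at 48 h, which left 0.425 and 0.398 of the starting level. In clone 3 it was -1.07 ± 0.065 at 24 h and -1.32 ± 0.0655 at 72 h (edgeR adjusted p = 4.51e-09 and 1.77e-10). Hence, most of the fall was in place by the first sampled time in both clones.

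PPAT, the amidotransferase that commits the pathway, fell less than its head-to-head neighbour PAICS. In shIRE1 clone 1 it was at 96.0, 93.3 and 88.4 CPM at 0 h, 74.9, 70.7 and 68.1 CPM at 24 h and 65.4, 65.0 and 71.5 CPM at 48 h. The values of clone 3 were 85.9, 78.0 and 75.2 CPM at 0 h, 70.4, 65.7 and 63.3 CPM at 24 h and 55.3, 56.4 and 62.6 CPM at 72 h. The treated libraries were below the untreated ones without overlap, although the gap at 24 h in clone 3 was narrow. The log2 changes were -0.38 ± 0.0477 and -0.46 ± 0.048 in clone 1 and -0.27 ± 0.0627 and -0.47 ± 0.0631 in clone 3. In clone 3 at 24 h the change was -0.16, below the threshold, when library totals replaced the normalization factors.

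The unequal fall of the 2 divergent genes can be read within each library, where it does not depend on scaling. The ratio of PAICS to PPAT counts was 5.94 ± 0.141 (SD, n = 3) at 0 h, 3.29 ± 0.0712 at 24 h and 3.25 ± 0.0231 at 48 h in shIRE1 clone 1. The ratio in clone 3 was 5.57 ± 0.0576 at 0 h, 3.19 ± 0.133 at 24 h and 3.09 ± 0.028 at 72 h. In shXBP1 clone 1 the mean ratio stayed between 5.81 and 6.02, and in clone 18 it was 5.01 ± 0.144 at 0 h and 6.09 ± 0.159 at 48 h. Every Dox-treated shIRE1 library thus had a lower ratio than every 0 h library and every shXBP1 library.

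**Figure D2:**
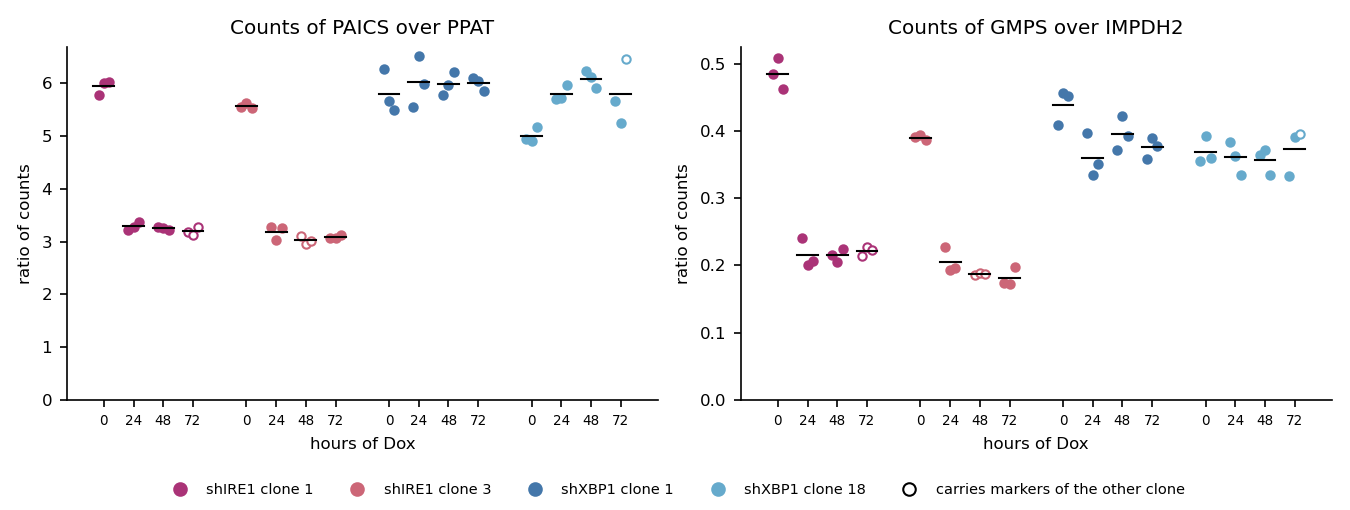
Ratio of PAICS to PPAT counts (left) and of GMPS to IMPDH2 counts (right) in each of the 48 libraries (points) with group means (lines), by hours of Dox and clone; hollow points are the 7 libraries that carry markers of the other clone. The mean PAICS to PPAT ratio of the Dox-treated groups lies between 3.03 and 3.29 in the shIRE1 clones and between 5.79 and 6.09 in the shXBP1 clones.

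The remaining enzymes of the de novo route to IMP were GART, PFAS, ADSL and ATIC. GART, a protein with several activities early in the pathway, was lower in clone 1, with log2 changes of -0.12 ± 0.0357 at 24 h and -0.23 ± 0.0358 at 48 h, and in clone 3, with -0.21 ± 0.0473 at 72 h, with -0.05 ± 0.0472 at 24 h below the threshold. Scaling by library totals moved the median of all genes by 0.112 to 0.167 in the shIRE1 comparisons with 0 h. With library totals GART was at 0.04, -0.08 and -0.06 in these 3 comparisons, and none of the 3 passed. ATIC, which closes the ring to IMP, was higher in clone 1 at 48 h by 0.18 ± 0.0437 and in clone 3 by 0.15 ± 0.0511 at 24 h and 0.29 ± 0.0511 at 72 h, while its 0.06 at 24 h in clone 1 did not pass. With library totals that value was 0.22 and passed. The ATIC call in shIRE1 clone 3 at 24 h was lost when replicate 2 of 0 h, replicate 3 of 0 h, replicate 2 of 24 h or replicate 3 of 24 h was left out, with 0.16, 0.09, 0.13 and 0.15 respectively. ADSL, which acts in both the IMP and the AMP branch, passed in no shIRE1 comparison with its own clone's 0 h libraries, with log2 changes between -0.04 and 0.05. With library totals ADSL passed in clone 1 at 48 h, with 0.19, and in the libraries labelled clone 1 at 72 h, with 0.17.

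PFAS, the amidotransferase that adds a ring nitrogen from glutamine, differed between the shIRE1 clones at 24 h. In clone 1 it went from 191, 197 and 208 CPM at 0 h to 165, 168 and 176 CPM at 24 h, with a log2 change of -0.23 ± 0.0494. In clone 3 it went from 152, 171 and 184 CPM to 188, 230.2 and 217 CPM, a change of 0.32 ± 0.0859. The groups did not overlap in either clone and moved in opposite directions. The difference of the changes (clone 1 minus clone 3) was -0.55 ± 0.143 (edgeR adjusted p = 0.00307), where 28.2% of all genes differed between the clones at that time. With library totals the change in clone 1 at 24 h was -0.08 and did not pass. At 48 h in clone 1 PFAS was lower, with -0.30 ± 0.0496, and at 72 h in clone 3 its change of -0.08 ± 0.0861 did not pass.

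At the branch from IMP to GMP the consecutive enzymes moved apart. GMPS, the GMP synthetase, was at 231, 233 and 216 CPM at 0 h, 134, 124 and 124 CPM at 24 h and 128, 126 and 138 CPM at 48 h in shIRE1 clone 1. Clone 3 held 189, 185 and 179 CPM at 0 h, 131, 119 and 117 CPM at 24 h and 104, 102 and 122 CPM at 72 h. All treated libraries lay below all untreated ones, with log2 changes of -0.83 ± 0.0453 and -0.79 ± 0.0454 in clone 1 and -0.60 ± 0.0601 and -0.77 ± 0.0604 in clone 3. IMPDH2, the dehydrogenase that supplies GMPS with XMP, was at 477, 459 and 467 CPM at 0 h, 559, 618 and 603 CPM at 24 h and 594, 617 and 615 CPM at 48 h in clone 1. Clone 3 held 484, 470.0 and 465 CPM at 0 h, 576, 616 and 599.7 CPM at 24 h and 595, 594 and 614 CPM at 72 h. Here all treated libraries lay above all untreated ones, with log2 changes of 0.34 ± 0.0377 and 0.38 ± 0.0377 in clone 1 and 0.33 ± 0.043 and 0.33 ± 0.043 in clone 3. The ratio of GMPS to IMPDH2 counts accordingly went from 0.485 ± 0.023 (SD, n = 3) at 0 h to 0.215 ± 0.0216 at 24 h in clone 1 and from 0.39 ± 0.00397 to 0.205 ± 0.0191 in clone 3. The summed level of the 10 enzymes, in which the more abundant ones weigh most, went from 2346 CPM at 0 h to 2018 CPM at 24 h in clone 1 and from 2143 to 2048 CPM in clone 3.

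**Figure D3:**
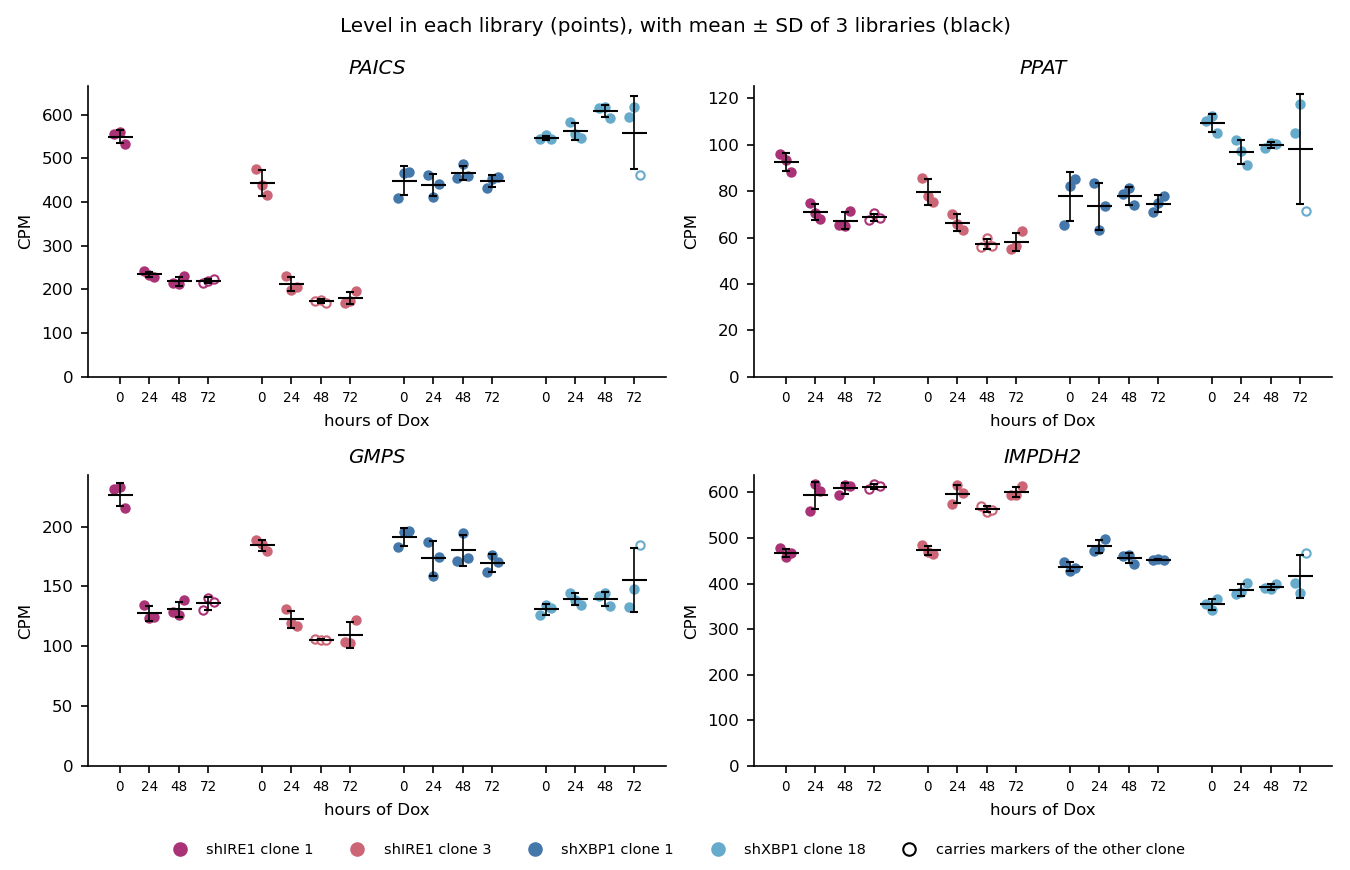
Level in CPM of PAICS, PPAT, GMPS and IMPDH2 in each library (points) with the mean ± SD of 3 libraries (black), by hours of Dox and clone; hollow points are the 7 libraries that carry markers of the other clone. In the shIRE1 clones the treated libraries of PAICS, PPAT and GMPS lie below those of 0 h and the treated libraries of IMPDH2 lie above them, without overlap.

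HPRT1, which salvages hypoxanthine and guanine, was at 24.1, 21.0 and 20.3 CPM at 0 h, 29.7, 30.0 and 29.3 CPM at 24 h and 27.0, 26.3 and 28.4 CPM at 48 h in shIRE1 clone 1. Clone 3 held 38.0, 32.2 and 31.1 CPM at 0 h, 31.3, 25.3 and 26.7 CPM at 24 h and 24.7, 27.7 and 28.7 CPM at 72 h. The treated libraries of clone 1 lay above those of 0 h without overlap, whereas in clone 3 they lay below at 72 h and overlapped narrowly at 24 h. The log2 changes were 0.45 ± 0.0697 and 0.33 ± 0.0704 in clone 1 and -0.29 ± 0.0896 and -0.33 ± 0.0898 in clone 3. The difference between the clones at 24 h was 0.73 ± 0.141 (edgeR adjusted p = 0.00011), and without the 6 shIRE1 libraries with conflicting labels it was 0.73 and still passed, as did that of PFAS (26.7% of all genes). Since clone 3 started higher at 0 h, the clones were closer to each other after Dox than before. The fall in clone 3 was less secure. The HPRT1 call in shIRE1 clone 3 at 24 h was lost when replicate 1 of 0 h, replicate 2 of 24 h or replicate 3 of 24 h was left out, with -0.21, -0.23 and -0.27 respectively. With library totals the changes in clone 3 were -0.18 at 24 h and -0.18 at 72 h and neither passed.

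APRT, which salvages adenine, had the largest SE of the 10 enzymes in both shIRE1 clones. In shIRE1 clone 1 it was at 77.0, 88.2 and 93.8 CPM at 0 h, 91.8, 113 and 106 CPM at 24 h and 119, 107 and 97.4 CPM at 48 h, with log2 changes of 0.26 ± 0.0876 and 0.32 ± 0.0877. In clone 3 it was at 88.0, 77.5 and 96.2 CPM at 0 h, 101, 121 and 116 CPM at 24 h and 106, 117 and 75.8 CPM at 72 h, with 0.36 ± 0.13 at 24 h passing and 0.18 ± 0.13 at 72 h not. The groups overlapped at 24 h in clone 1 and at 72 h in clone 3, and did not overlap in the other 2 comparisons. The APRT call in shIRE1 clone 1 at 24 h was lost when replicate 1 of 0 h, replicate 2 of 24 h or replicate 3 of 24 h was left out, with 0.18, 0.19 and 0.24 respectively. The APRT call in shIRE1 clone 3 at 24 h was lost when replicate 1 of 0 h, replicate 2 of 0 h, replicate 2 of 24 h or replicate 3 of 24 h was left out, with 0.35, 0.27, 0.30 and 0.34 respectively. The APRT call in shIRE1 clone 3 at 72 h was gained when replicate 3 of 72 h was left out, with 0.34. With all 48 libraries in 1 fit, the changes in clone 1 at both times and in clone 3 at 24 h no longer passed, and with the replicate number as a block the change in clone 3 at 24 h did not pass either (edgeR adjusted p = 0.0534).

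**Figure D4:**
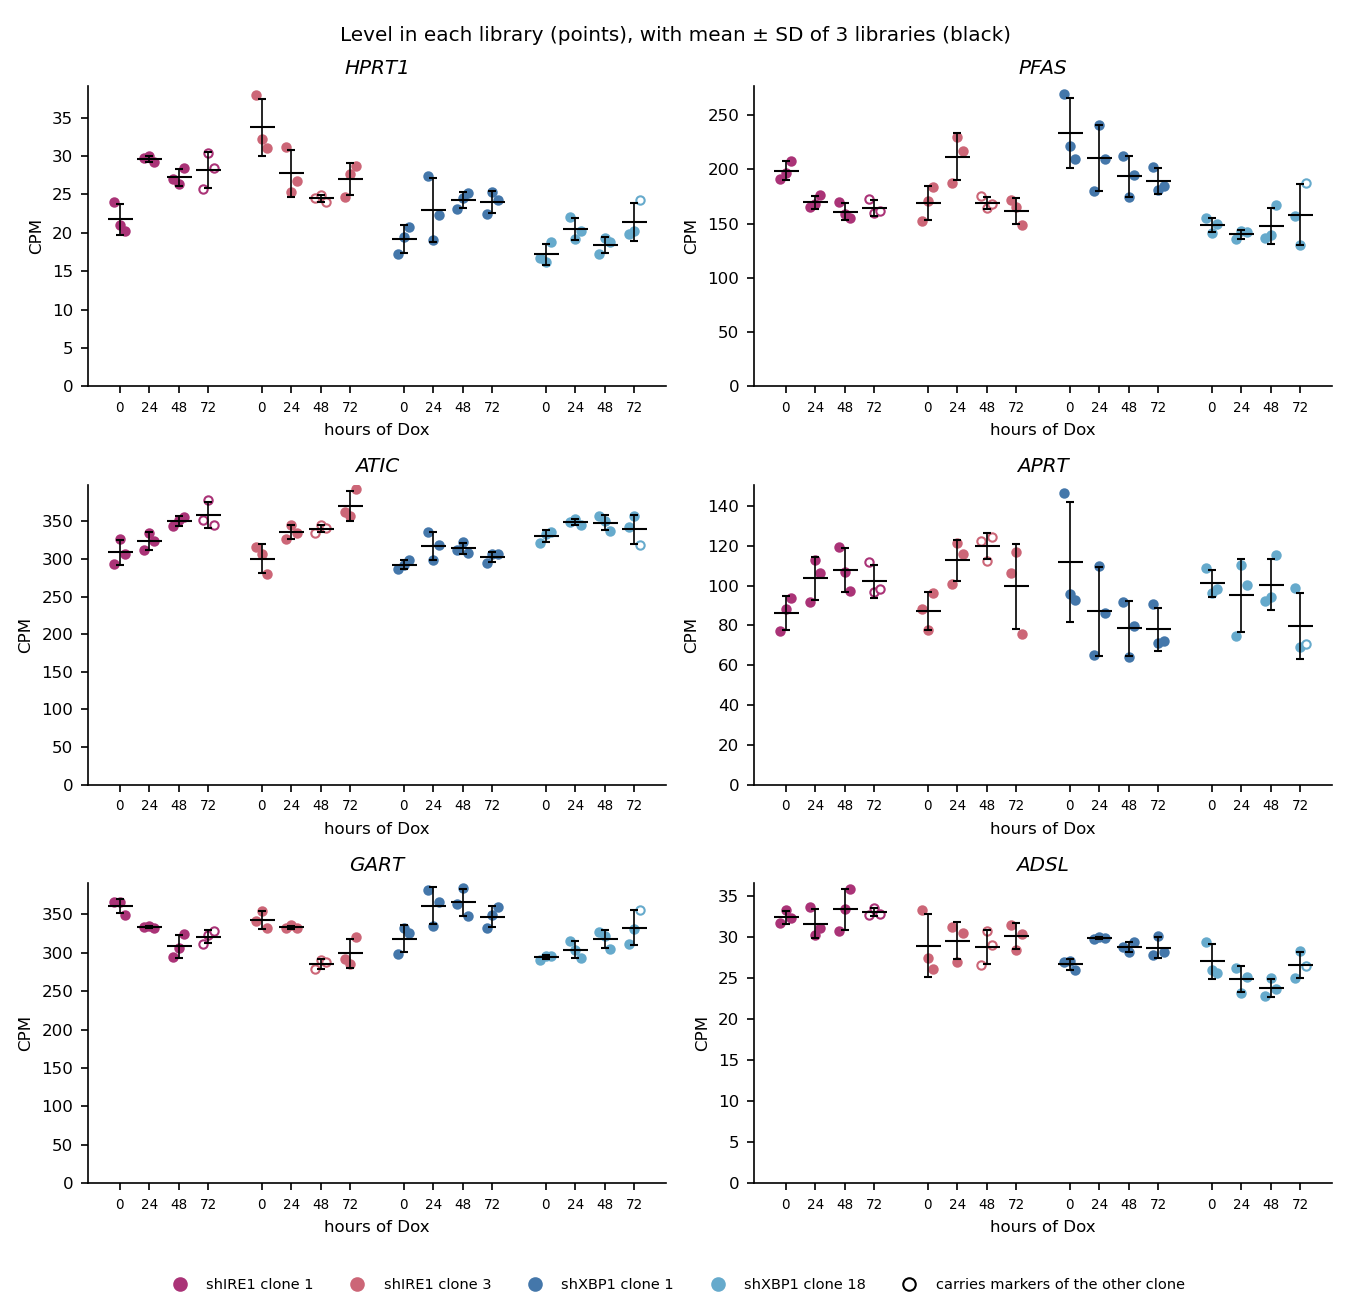
Level in CPM of HPRT1, PFAS, ATIC, APRT, GART and ADSL in each library (points) with the mean ± SD of 3 libraries (black), by hours of Dox and clone; hollow points are the 7 libraries that carry markers of the other clone. HPRT1 rises from 21.8 to 29.6 CPM at 24 h in shIRE1 clone 1 and goes from 33.8 to 27.8 CPM in clone 3.

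The 6 shIRE1 libraries with conflicting markers gave values that depended on the 0 h libraries they were set against. Against the clone of their label, 4 members rose and 5 fell in the libraries labelled clone 1 at 72 h, where 63.6% of all genes passed, and 3 rose and 5 fell in those labelled clone 3 at 48 h, where 63.2% passed. PAICS was at 214, 220.1 and 225 CPM in the former and 174, 177 and 169.6 CPM in the latter, below every 0 h library of either clone. Its log2 change was -1.33 ± 0.0379 and -1.36 ± 0.0655 against the labelled clone, and -1.01 ± 0.0701 and -1.66 ± 0.0711 against the 0 h libraries of the other shIRE1 clone. GMPS moved in the same way, with -0.74 and -0.82 against the labelled clone and -0.44 and -1.10 against the other. PPAT in the libraries labelled clone 1 at 72 h was at -0.43 against clone 1 and at -0.21 against clone 3, where it no longer passed. IMPDH2 was higher by 0.39 and 0.24 against the labelled clone and by 0.37 and 0.27 against the other. HPRT1 changed sign with the choice. The libraries labelled clone 1 at 72 h were at 0.37 against clone 1 and -0.26 against clone 3, and those labelled clone 3 at 48 h were at -0.47 against clone 3 and 0.17 against clone 1. PFAS labelled clone 1 at 72 h likewise went from -0.27 to -0.04. Against the other clone's 0 h libraries 3 members rose and 3 fell in the libraries labelled clone 1 at 72 h, where 46.5% of all genes passed, and 3 rose and 6 fell in those labelled clone 3 at 48 h, where 64.9% passed.

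Without these libraries, the shIRE1 time course can be followed from 24 to 72 h in clone 3 and from 24 to 48 h in clone 1. The clone 3 interval was not tested. Its mean levels in CPM went from 212 to 162 for PFAS, 212 to 179 for PAICS, 333 to 299 for GART and 122 to 109 for GMPS. They went from 66.4 to 58.1 for PPAT, 113 to 99.7 for APRT and 27.8 to 27.0 for HPRT1. ATIC went from 335 to 371, IMPDH2 from 597 to 601 and ADSL from 29.6 to 30.1. From 24 to 48 h in clone 1, ATIC rose by 0.12 ± 0.0436 and GART fell, with -0.11 ± 0.0358. These were the 2 members that passed, where 30.3% of all genes did. Without the 6 libraries GART alone passed (28.3% of all genes). PAICS changed by -0.09 ± 0.0375 in that interval. From 24 h to the libraries labelled 48 h in clone 3, 5 members fell where 34.6% of all genes passed. From 48 to 72 h, 0 members passed in either clone by label, where 0.869% of all genes passed in clone 1 and 0.936% in clone 3; 0 and 1 members had an unadjusted p under 0.05. The responses of the shIRE1 clones (clone 1 minus clone 3) differed for HPRT1 at 48 and 72 h, by 0.79 ± 0.142 and 0.70 ± 0.142. No other member passed, where 30.8% and 27.5% of all genes did. Each of these differences includes a group with conflicting markers, that labelled clone 3 at 48 h or clone 1 at 72 h.

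Few of the enzymes passed the test under XBP1 silencing. In shXBP1 clone 1, 1 member passed at each time, where 26.7%, 32% and 33.6% of all genes passed at 24, 48 and 72 h. IMPDH2 was higher at 24 h by 0.12 ± 0.0394, GART at 48 h by 0.18 ± 0.0607, and GMPS was lower at 72 h, with -0.20 ± 0.0652 (edgeR adjusted p = 0.0459, 0.0392 and 0.0361). All 3 were close to the threshold. The IMPDH2 call in shXBP1 clone 1 at 24 h was lost when replicate 2 of 0 h, replicate 3 of 0 h or replicate 3 of 24 h was left out, with 0.11, 0.12 and 0.10 respectively. The GART call in shXBP1 clone 1 at 48 h was lost when replicate 1 of 0 h, replicate 1 of 48 h or replicate 2 of 48 h was left out, with 0.14, 0.18 and 0.15 respectively. The GMPS call in shXBP1 clone 1 at 72 h was lost when replicate 2 of 0 h, replicate 3 of 0 h, replicate 1 of 72 h, replicate 2 of 72 h or replicate 3 of 72 h was left out, with -0.18, -0.18, -0.15, -0.21 and -0.19 respectively. Leaving out replicate 2 of 24 h raised the count at 24 h to 4, with GART at 0.21, HPRT1 at 0.35 and ATIC at 0.14 added to IMPDH2, and GMPS was added at -0.21 without replicate 1 of 24 h. Without replicate 3 of 0 h, HPRT1 was added at 48 h (0.38). DESeq2 called 0, 3 and 4 members at the 3 times in this clone. In clone 18, 0 members passed at any time in edgeR, where 1.59%, 5.78% and 9.96% of all genes passed, while 1, 1 and 5 had an unadjusted p under 0.05 and DESeq2 called 0, 0 and 3. Without replicate 3 of 72 h, the library nearer to clone 1, PAICS (0.15) and IMPDH2 (0.14) passed at 48 h and 0 members at 24 and 72 h, against 12.9%, 4.78% and 7.57% of all genes at 48, 24 and 72 h. Without replicate 1 of 72 h, 5 members passed at 72 h, with IMPDH2 at 0.26, GMPS at 0.36, HPRT1 at 0.38, GART at 0.23 and APRT at -0.52, but that fit leaned on the doubted replicate 3. Without replicate 2 of 72 h, IMPDH2 passed at 0.30.

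For PAICS the largest change against 0 h under XBP1 silencing was 0.15 on the log2 scale. In shXBP1 clone 1 it was at 410.2, 467 and 469 CPM at 0 h and 433, 453 and 458 CPM at 72 h, and the groups overlapped. In clone 18 it was at 545, 553 and 545 CPM at 0 h, 615, 618 and 593 CPM at 48 h and 596, 617 and 463 CPM at 72 h, the last of these values being the library with the markers of clone 1. The log2 changes at 24, 48 and 72 h were -0.06 ± 0.0609, 0.04 ± 0.0609 and -0.02 ± 0.0609 in clone 1 and 0.04 ± 0.083, 0.15 ± 0.083 and 0.03 ± 0.083 in clone 18. Between the shXBP1 clones, the changes differed for 0 members at 24 h (17.1% of all genes in edgeR, with 2 members at an unadjusted p under 0.05) and for ADSL at 48 h, by 0.29 ± 0.106 (24.1%). The ADSL difference did not survive the loss of any 1 of the 12 libraries compared, at 0.20 to 0.30, except replicate 3 of clone 18 at 0 h. At 72 h they differed for GMPS by -0.42 ± 0.107, PFAS by -0.39 ± 0.144 and IMPDH2 by -0.18 ± 0.0671 (24.6%), of which GMPS alone, at -0.31, passed without replicate 3 of clone 18 at 72 h (19.8%). Without replicate 2 of clone 18 or replicate 1 of clone 1 at 0 h, IMPDH2 and PFAS also failed to pass, with -0.18 and -0.30 in the latter case.

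The responses to shIRE1 and shXBP1, with each as the mean of its 2 clones, were compared by a direct test of their difference. Mean ERN1 mRNA was 188, 325, 293 and 314 CPM at 0, 24, 48 and 72 h in shXBP1 clone 1. In clone 18 it was 414, 401, 339 and 338 CPM by label. ERN1 thus moved in the shXBP1 lines too, and the difference does not isolate loss of IRE1 beyond loss of XBP1. Mean XBP1 mRNA itself was 179, 192 and 130.4 CPM at 0, 24 and 48 h in shIRE1 clone 1. In shIRE1 clone 3 it was 217, 198 and 121 CPM at 0, 24 and 72 h. XBP1 mRNA thus stayed well above its level in the Dox-treated shXBP1 clones. These are counts per gene and do not measure the spliced form of XBP1 mRNA that IRE1 produces. They therefore do not show how much active XBP1 was left. At 24 h, 5 members differed, PAICS by -1.15 ± 0.0693, GMPS by -0.68 ± 0.0753, GART by -0.19 ± 0.0516, IMPDH2 by 0.21 ± 0.0474 and APRT by 0.54 ± 0.171, where 38.7% of all genes did. The APRT call of the difference at 24 h was lost when replicate 1 of shXBP1 clone 1 at 0 h was left out, with 0.40. That library held 147 CPM of APRT beside 95.6 and 93.0 CPM in the other replicates. By single pairs of clones, APRT passed at 24 h with shIRE1 clone 3 against shXBP1 clone 1 and in none of the other 3 pairs, at 0.62 with both clones 1, 0.35 with clones 1 and 18 and 0.45 with clones 3 and 18. GART at 24 h did not pass against shXBP1 clone 18, at -0.16 with shIRE1 clone 1 and -0.09 with clone 3, nor with library totals (-0.11). HPRT1 and PFAS moved in opposite directions in the shIRE1 clones at 24 h, and neither passed in their mean. With shIRE1 clone 3 alone both passed against shXBP1 clones 1 and 18. HPRT1 was at -0.54 in each pair, and PFAS was at 0.48 and 0.41. Without the 7 libraries, 6 members differed at 24 h (38.7% of all genes), with PPAT added at -0.21. At 48 and 72 h, 7 and 8 members differed with all libraries, where 56.9% and 55.3% of all genes did. Without the 7 libraries, 6 differed at 48 h (48% of all genes) and 8 at 72 h (52.6%), with shIRE1 clone 1 alone at 48 h and clone 3 alone at 72 h on the shIRE1 side. PAICS then differed by -1.45 ± 0.068 at 48 h and -1.39 ± 0.0693 at 72 h, and GMPS by -0.81 ± 0.0763 and -0.74 ± 0.078. PPAT followed with -0.41 and -0.46, and GART with -0.39 and -0.34. IMPDH2 was higher under shIRE1 by 0.27 and 0.24, and APRT by 0.57 at both times. By label, the pair of shIRE1 clone 3 and shXBP1 clone 18 gave 0.11 and 0.12 for IMPDH2 and 0.46 and 0.53 for APRT at 48 and 72 h, and none of the 4 passed. APRT did not pass with clones 1 and 18 at 48 h either (0.33). PPAT did not pass with clones 1 and 18 at 48 h (-0.33) and 72 h (-0.27), nor with clones 3 and 18 at 72 h (-0.30). With shIRE1 clone 1 at 48 h, HPRT1 was at 0.09 and not past the threshold. With clone 3 at 72 h it was at -0.61 and passed. Clone and time cannot be told apart in these values. With all libraries HPRT1 was at -0.29 and -0.30, and passed at both times.

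**Figure D5:**
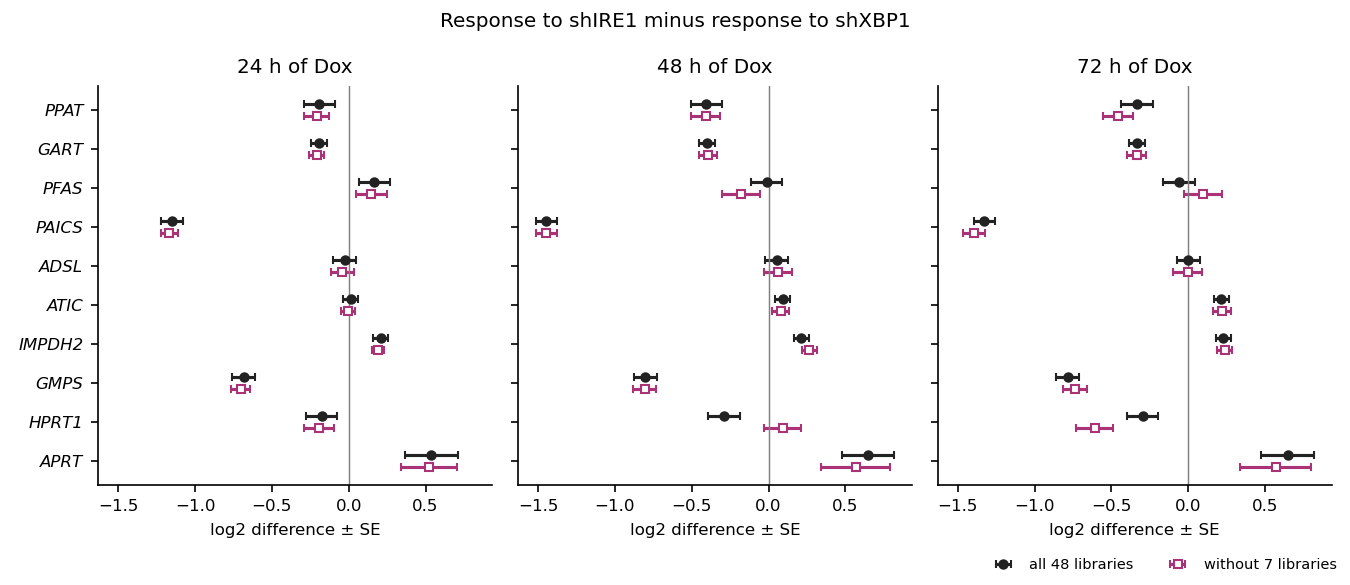
Difference in log2 change from 0 h, shIRE1 minus shXBP1 (horizontal axis, ± SE), for each enzyme at 24, 48 and 72 h of Dox, with all 48 libraries (filled circles) and without the 7 libraries that carry markers of the other clone (hollow squares). PAICS and GMPS are the lowest at every time in both sets, and HPRT1 moves from -0.29 to 0.09 at 48 h.

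Genes around these enzymes were described from 3 further lists. Of 17 tested genes of folate and serine carbon supply, the source of the one-carbon units that GART and ATIC use, 3 rose and 13 fell in shIRE1 clone 1 at 48 h, with a median log2 change of -0.43, and 2 rose and 13 fell in clone 3 at 72 h, with a median of -0.78. PHGDH, which starts serine synthesis, fell by 1.06 ± 0.0688 and 1.79 ± 0.0942 on the log2 scale, whereas FPGS, which adds glutamates to folate, rose by 0.47 ± 0.0703 and 0.23 ± 0.0823. In shXBP1 clones 1 and 18 at 72 h, 2 genes of this list rose and 4 fell, and 0 rose and 3 fell, with FPGS among the falls at -0.45 ± 0.143 and -0.44 ± 0.114, where 33.6% and 9.96% of all genes passed. Without replicate 3 of clone 18 at 72 h, 0 rose and 1 fell in that clone, where 7.57% of all genes passed, and the median of the list was 0.0324 in place of -0.03. FPGS was then at -0.42 ± 0.123 and did not pass (edgeR adjusted p = 0.0515). Of 27 other purine genes tested, 10 rose and 9 fell in shIRE1 clone 1 at 48 h and in clone 3 at 72 h. DCK, a kinase that salvages deoxynucleosides, fell by 2.41 ± 0.0943 and 2.15 ± 0.106, and XDH, which oxidizes hypoxanthine to uric acid, rose by 2.23 ± 0.205 and 1.74 ± 0.216. AMPD3, an AMP deaminase, rose at 72 h in shXBP1 clone 1 by 0.92 ± 0.101 and in clone 18 by 0.47 ± 0.0799, or by 0.49 without that replicate. Of 10 pyrimidine genes, 1 rose and 6 fell in shIRE1 clone 1 at 48 h, and 2 rose and 5 fell in clone 3 at 72 h, among them UCK2, a uridine-cytidine kinase, at -0.99 ± 0.0361 and -1.08 ± 0.0546. The counts in the shIRE1 clones stand beside the 65.4% and 60.2% of all genes that passed.

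MYC and ATF4 were measured in the same libraries. MYC, a transcription factor that binds E-boxes and is known to drive genes of nucleotide synthesis, was at 1723 ± 52.8 (SD, n = 3), 1242 ± 57.0 and 909 ± 59.1 CPM at 0, 24 and 48 h in shIRE1 clone 1. The means in clone 3 were 1351 ± 83.4, 1434 ± 113 and 819.9 ± 45.0 CPM at 0, 24 and 72 h. Its log2 change at 24 h was -0.48 in clone 1 and 0.08, not past the threshold, in clone 3. In shXBP1 clone 1 MYC was at -0.28 at 24 h, not past the threshold, and fell at 48 and 72 h, with -0.42 and -0.40, while 0.03, 0.02 and 0.11 in clone 18 did not pass (-0.05 at 72 h without replicate 3). ATF4, a stress-activated factor known to drive serine and folate enzymes, fell in clone 1 at 48 h, with -0.56 ± 0.0463, and in clone 3 at 72 h, with -1.31 ± 0.0572. It also fell in shXBP1 clone 1 at 48 and 72 h, with -0.18 and -0.19, and in clone 18 at 24, 48 and 72 h, with -0.35, -0.25 and -0.24. Whether either factor had a part in the changes of the enzymes was not tested.

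The genes whose course was most like the median of the 10 members, over the 12 comparisons with 0 h, were CHAC2 (Pearson's r = 0.984), TMEM97 (0.982), TUBGCP3 (0.980), FAR1 (0.973) and CXorf57 (0.972) among 9501 genes. Of the members themselves GART (0.948), PAICS (0.936), GMPS (0.922) and PPAT (0.919) were most like it and APRT least (-0.763). The median includes the members, so part of their likeness is built in. It ran only from -0.133 to 0.0862 on the log2 scale. Members that moved apart enter it together, with ATIC at r = -0.749 and IMPDH2 at -0.752. The 12 points share the 0 h libraries within a clone. Over the 10 points without the groups labelled shIRE1 clone 1 at 72 h and clone 3 at 48 h, TUBGCP3, CHAC2, TMEM97 and FAR1 came first at 0.979, 0.978, 0.978 and 0.975.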

How the data were processed

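RNA from AMO1 cells was sequenced by the submitters with a stranded mRNA kit as single-end reads. Per the labels' processing notes, the tools were GSNAP, R 4.1.3, edgeR 3.32.1 and limma 3.46.0 on GRCh37/hg19. For these libraries the study refers to an earlier report. For its other AMO1 libraries it counted reads lying unambiguously in exons. Use of strand is not given in the sources used here. The authors deposited raw counts per gene and a table of log2 CPM for 18401 genes. That log2 table matched the log2 CPM of edgeR (prior count 2) within 5e-14, and was used only as an alternative.

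The counts were analysed with edgeR 4.0.16 in R 4.3.3 (TMM factors, filterByExpr with a minimum count of 10 and a minimum total of 15, quasi-likelihood F test, Benjamini-Hochberg adjustment over all genes tested, threshold 0.05). Each clone had its own fit of 12 libraries, and differences between clones or hairpin sets were tested with all 48. The SE of a log2 change was its size divided by the square root of F. CPM were scaled by TMM factors over 48 libraries. The code was tested on simulated data. Alternatives were DESeq2 1.42.0, RLE factors, library totals, no filter, limma 3.58.1 on the deposited table, fits of 6 or 48 libraries, the replicate block and each library left out. The fits without the libraries with conflicting markers, and those against the other clone's 0 h libraries, were added after the data were seen. Each member was named in every comparison. From each other list, the gene with the largest mean rise and fall over both clones at 72 h among those that passed in both was named. That choice used libraries with conflicting markers, those labelled shIRE1 clone 1 at 72 h and replicate 3 labelled shXBP1 clone 18 at 72 h. The members and lists were chosen with earlier results of these data known.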

Additional observations from a re-analysis of the deposited data

Results flagged for a closer look

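The responses to shIRE1 and shXBP1 differed by a direct test (edgeR quasi-likelihood test, Benjamini-Hochberg adjustment) in 20 member and time combinations, given as log2 differences, shIRE1 minus shXBP1. At 24 h these were PAICS at -1.15, GMPS at -0.68, GART at -0.19, IMPDH2 at 0.21 and APRT at 0.54. At 48 h they were PAICS at -1.45, GMPS at -0.80, GART at -0.40, PPAT at -0.40, HPRT1 at -0.29, IMPDH2 at 0.21 and APRT at 0.65. At 72 h they were PAICS at -1.33, GMPS at -0.78, GART at -0.33, PPAT at -0.33, HPRT1 at -0.30, ATIC at 0.21, IMPDH2 at 0.23 and APRT at 0.65. HPRT1 at 48 h was at 0.09 and no longer passed without the 7 libraries with conflicting markers.

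Between shIRE1 clones 1 and 3, the change from 0 h differed for HPRT1 by 0.73 and PFAS by -0.55 at 24 h. It also differed for HPRT1 by 0.79 at 48 h and 0.70 at 72 h, and these last 2 each include a group with conflicting markers. Between shXBP1 clones 1 and 18, it differed for ADSL by 0.29 at 48 h and for GMPS by -0.42, PFAS by -0.39 and IMPDH2 by -0.18 at 72 h, where 1 of the 6 libraries of 72 h carried the markers of the other clone.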

How the results depend on the processing

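Of the members' values recomputed under the alternatives, 4279 kept their direction and side of the threshold, 114 lost the threshold, 109 gained it and 8 reversed. The falls of PAICS and GMPS and the rise of IMPDH2 in the shIRE1 clones against their own 0 h libraries kept both under each alternative. The causes of the changes listed here were not tested. The depth limits only the low-count genes, since 1 count was worth at most 0.0521 CPM.

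Reversed values were GART in shIRE1 clone 1 at 24 h with library totals (0.0394), HPRT1 labelled clone 1 at 72 h (-0.26) and clone 3 at 48 h (0.17) against the other clone's 0 h libraries, and HPRT1 in the shIRE1 minus shXBP1 difference at 48 h with shIRE1 clone 1 and shXBP1 clone 18 alone (0.22), without the 2 shIRE1 groups (0.0946) and also without the shXBP1 library (0.0914), with -0.33 as the lowest value of the fits that leave out a library. At 72 h the HPRT1 difference was 0.0463 and 0.0567 with shIRE1 clone 1 against shXBP1 clone 1 or 18. At 24 h the differences of MYC (0.34, shIRE1 clone 3 against shXBP1 clone 1) and ATF4 (0.0185, shIRE1 clone 1 against shXBP1 clone 18) reversed.

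Counts of members that passed moved in shIRE1 clone 1 at 24 h to 5 with all 48 libraries in the fit, and from 24 to 48 h to 1 with RLE factors, library totals, no filter or without the 2 groups. With no filter they were 5 between the shIRE1 clones at 0 h, 2 between their changes at 48 h, 1 in clone 3 from 48 to 72 h and 1 in shXBP1 clone 18 from 48 to 72 h. With library totals 3 passed in shIRE1 clone 3 from 24 to 48 h. For shIRE1 minus shXBP1, 3 passed at 24 h and 4 at 48 h with clone 1 against clone 18, and 5 at 72 h with clone 3 against clone 18.

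In shXBP1 clone 18 the counts were 1 (all 48 libraries) and 3 (6 libraries) at 48 h, and at 72 h 3 (DESeq2), 1 (RLE), and 4 each with all 48 libraries, library totals or no filter. In shXBP1 clone 1 at 24 h they were 0 with DESeq2, RLE, limma, no filter or 6 libraries, 3 with all 48 libraries and 4 with library totals. At 48 h they were 3 (DESeq2), 4 (all 48 libraries), 5 (library totals) and 4 (no filter), and at 72 h 4 (DESeq2), 3 (all 48 libraries), 4 (library totals), 3 (no filter) and 3 (6 libraries). Between the shXBP1 clones at 48 h, 0 passed with DESeq2 or RLE.

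Leaving out 1 library at a time gave 3 to 5 members between the shIRE1 clones at 0 h, 5 to 8 in shIRE1 clone 3 at 24 h, 0 to 2 and 0 to 5 in shXBP1 clone 18 at 48 and 72 h, 0 to 4, 0 to 2 and 0 to 1 in shXBP1 clone 1 at 24, 48 and 72 h, and 0 to 1, 0 to 1 and 1 to 3 between the shXBP1 clones at these times.

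The replicate numbers only name flasks, since the deviations of same-numbered libraries from their group means had a median correlation of -0.000437, -0.0254, -0.0103 and -0.0105 in the 4 clones. With the replicate block, the counts moved in shXBP1 clone 18 at 72 h to 1, in shXBP1 clone 1 to 0 at 24, 48 and 72 h, and between the shXBP1 clones at 48 h to 0. In shIRE1 clone 3 at 24 h it moved from 8 to 7, since APRT no longer passed (0.36, edgeR adjusted p = 0.0534).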
